A study of Mus musculus with 9 samples.

Results

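Acan, Lect1, Matn1, Comp, Hapln1, Sox9 and Chad, 7 genes known for their roles in cartilage, were followed through RNA sequencing of whole mouse thyroid. They were taken by symbol from a count table of 33924 genes, and all 7 symbols were found. The table covered 9 libraries from flash-frozen thyroids, 3 labelled Smarcb1 KO, 3 labelled Arid2 KO and 3 labelled wild type. Smarcb1 and Arid2 encode subunits of SWI/SNF, the remodelling complexes that slide and evict nucleosomes, and the design sets knockout thyroid against wild-type thyroid. The labels give neither the promoter that drives any Cre, nor the cells in which the genes were deleted, nor strain, age, sex or whether tissue was pooled. They do not state that the libraries of a group are separate animals, so the p-values describe the spread between these libraries, which may be technical.

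Hyaline cartilage is built by chondrocytes, and the rings of the trachea, on which the thyroid lies, are made of it. The transcription factor Sox9 directs the chondrocyte programme. Its targets build a matrix in which the proteoglycan aggrecan (Acan) is held on hyaluronan by the link protein Hapln1, within a network of type II collagen (Col2a1) fibrils. The adaptors matrilin 1 (Matn1), cartilage oligomeric matrix protein (Comp) and chondroadherin (Chad) tie fibrils, proteoglycans and cell surfaces together. Lect1, also named Cnmd, encodes chondromodulin, a secreted inhibitor of blood vessel growth that keeps cartilage avascular. Sox9, Comp and Chad are not exclusive to cartilage: Sox9 marks many epithelia, and Comp is abundant in tendon.

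The 7 genes did not behave as a group. Lect1 was higher in Smarcb1-labelled than in wild-type thyroid, with 2 of the 3 Smarcb1-labelled libraries far above all others. Acan and Matn1 had at most 1 count in any wild-type library, and more in some or all of the knockout-labelled ones. These counts are not scaled for depth, which was lowest in wild type. Sox9 and Chad were present in all 9 libraries at levels that differed by 1.89-fold and 2.17-fold between the highest and the lowest library. By edgeR's quasi-likelihood test with Benjamini-Hochberg adjustment over 17079 genes, Lect1 alone of the 6 members tested passed an adjusted p under 0.05, in both comparisons that involve the Smarcb1-labelled group.

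The promoters of Lect1 and Hapln1, which were both highest in Smarcb1-labelled replicates 1 and 3, and of Chad, which was not, are shown first. Acan and Matn1 shared another pair of highest libraries, described with their counts. The sequences are RefSeq's for GRCm38.p6 and run 5′ to 3′ over the 250 bases before the annotated gene start; RefSeq lists Lect1 as Cnmd. Capitals mark TATAAA, the TATA box letters.
Lect1, chr14:79662184-79662433, - strand: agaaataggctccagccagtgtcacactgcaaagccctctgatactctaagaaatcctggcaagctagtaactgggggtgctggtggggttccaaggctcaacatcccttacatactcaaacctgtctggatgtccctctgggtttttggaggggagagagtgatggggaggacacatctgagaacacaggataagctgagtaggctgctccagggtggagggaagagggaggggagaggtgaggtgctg
Hapln1, chr13:89540386-89540635, + strand: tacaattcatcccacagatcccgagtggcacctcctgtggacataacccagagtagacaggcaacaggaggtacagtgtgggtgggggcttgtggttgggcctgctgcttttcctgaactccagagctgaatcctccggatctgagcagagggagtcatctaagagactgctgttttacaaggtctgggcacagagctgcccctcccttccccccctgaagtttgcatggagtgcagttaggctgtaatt
Chad, chr11:94564797-94565046, + strand: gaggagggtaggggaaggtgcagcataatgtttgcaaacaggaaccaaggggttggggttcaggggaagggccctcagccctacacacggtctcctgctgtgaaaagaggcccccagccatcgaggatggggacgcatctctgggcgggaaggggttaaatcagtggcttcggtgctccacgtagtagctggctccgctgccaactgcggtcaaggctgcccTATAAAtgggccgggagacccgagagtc
Promoters were found for 5 members, Acan, Lect1, Matn1, Hapln1 and Chad. They were searched on both strands for ACAAAG and ACAATG, core letters bound by SOX factors, and for TATAAA, none of which overlap here. TATAAA stood 28 bases before the start of Chad and in none of the other 4, and 12.4% of 32851 promoters in the table hold it within the same 250 bases. Neither SOX core was in these windows of the 5 members, while 25.2% of all promoters hold at least 1 of the pair. The GC content of the windows was 54% for Lect1, 54.4% for Hapln1, 60.4% for Chad, 62% for Matn1 and 74.4% for Acan.

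Total counts ran from 38644867 to 41362640 in the Smarcb1-labelled libraries, from 61179297 to 89553766 in the Arid2-labelled libraries and from 33666251 to 34045321 in wild type. Levels are given in CPM, read counts scaled to a common library size, with the TMM correction for differences in composition. The thyroid label was borne out by its defining markers, since the summed level of 8 follicular cell genes, led by thyroglobulin, was between 228277 and 324381 CPM in every library. Arid2 ranged from 59.9 to 94.6 CPM in the Arid2-labelled libraries, which overlapped the 67.8 to 75.0 CPM of wild type (log2 fold change 0.13, SE 0.16, adjusted p = 0.745). Smarcb1 ranged from 47.5 to 59.4 CPM in the Smarcb1-labelled libraries, all below the 65.9 to 71.7 CPM of wild type, and the difference did not pass (log2 fold change -0.36, SE 0.11, adjusted p = 0.0651). The deleted parts of the genes are not given in the sources used here, so gene-level counts check the labels only in part, and the groups are called by their labels. In Smarcb1-labelled replicate 2 and Arid2-labelled replicate 1 the summed level of 6 thymocyte genes was 160.2 and 1057 CPM, against 3.31 CPM or less in the other 7. In whole tissue, fewer cells of a type and less RNA per cell cannot be told apart.

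**Figure D1:**
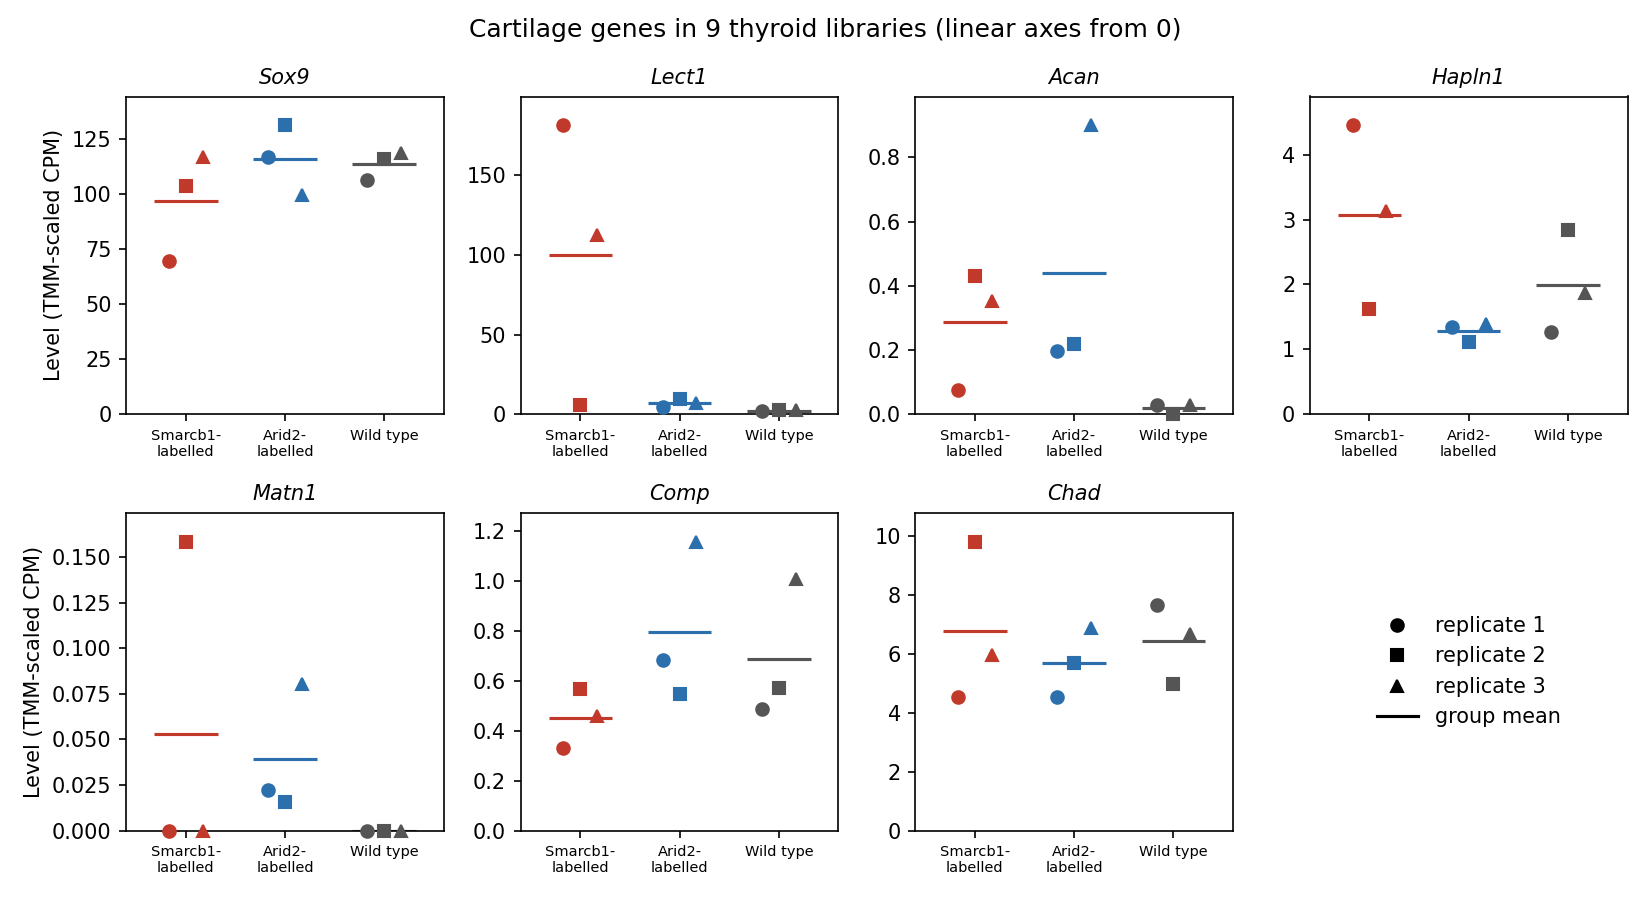
Levels of the 7 cartilage genes (TMM-scaled CPM, linear axes from 0) in Smarcb1-labelled, Arid2-labelled and wild-type thyroid libraries; each symbol is a library and each line a group mean of 3. Lect1 reaches 181.4 and 112.5 CPM in replicates 1 and 3 of the Smarcb1-labelled group and is at 9.42 CPM or less elsewhere, while Sox9 and Chad overlap between all groups.

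Lect1, the secreted inhibitor of vessel growth, measured 181.4, 6.09 and 112.5 CPM across Smarcb1-labelled replicates 1 to 3, 4.53, 9.42 and 7.21 CPM across Arid2-labelled replicates 1 to 3 and 1.82, 2.39 and 2.46 CPM across wild-type replicates 1 to 3. All 6 knockout-labelled libraries were thus above all 3 wild-type libraries. Smarcb1-labelled replicate 2 lay inside the Arid2-labelled range. Replicates 1, 2 and 3 of the Smarcb1-labelled group were 81.6, 2.74 and 50.6 times the wild-type mean, and the Arid2-labelled replicates were 2.04, 4.24 and 3.24 times it. The spread inside the Smarcb1-labelled group, 29.8-fold between its highest and lowest library, exceeded the distance from that lowest library to wild type.

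Against wild type, Lect1 in the Smarcb1-labelled group had a fitted log2 fold change equal to 5.49 (SE 1.02, adjusted p = 0.0181 by edgeR). It was the only member called of 6 tested, while 7.9% of all genes tested were called, 2.15% higher and 5.74% lower. Acan also had all Smarcb1-labelled libraries above wild type, but it passed the filter on low counts only through knockout-labelled libraries and is not counted here. Lect1 had Smarcb1-labelled libraries wholly above wild type, as had 17.1% of all genes tested, and no member lay wholly below, against 16.7%. On log2(CPM + 0.5), an exact permutation test (two-sided) gave p = 0.1, the smallest that 3 libraries against 3 allow (0.35 adjusted over the 21 member comparisons). The log2 fold change was 4.73 without Smarcb1-labelled replicate 1 (adjusted p = 0.0454) and 6.04 without replicate 2 (adjusted p = 0.000393). The call ended without Smarcb1-labelled replicate 3 (adjusted p = 0.0545), without any 1 wild-type library (0.0777, 0.0622 and 0.0617 for replicates 1, 2 and 3) and with limma-voom (4.47, adjusted p = 0.141).

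In the Arid2-labelled group the log2 fold change of Lect1 against wild type was 1.66 (SE 0.91) and did not pass (adjusted p = 0.435). The level was higher in 3 of 3 libraries, and 12.9% of all genes tested had Arid2-labelled libraries wholly above wild type. Omission of both libraries with thymocyte genes, added once the data had been seen, gave 1.87 and an adjusted p of 0.0358. Those libraries, Arid2-labelled replicate 1 and Smarcb1-labelled replicate 2, had the least Lect1 of their groups, 4.53 and 6.09 CPM. None of the 6 members tested was called in this comparison by edgeR, against 0.556% of all genes (0.234% higher and 0.322% lower). By edgeR 1 member, Acan, had an unadjusted p under 0.05, as had 14.9% of all genes, and it was called by DESeq2. Acan was admitted by the filter only through knockout-labelled libraries.

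Between the knockout-labelled groups, Lect1 was higher in the Smarcb1-labelled libraries by 3.83 on the log2 scale (SE 0.92, adjusted p = 0.0277), although the groups overlapped. It was again the only member called of 6 tested, where 16.3% of all genes were called, 6.95% higher and 9.32% lower. At an unadjusted p under 0.05 there were 2 members, Lect1 and Hapln1, beside 35.8% of all genes. The call ended without any 1 Arid2-labelled library (adjusted p between 0.0700 and 0.106), without Smarcb1-labelled replicates 1 (3.07, adjusted p = 0.0882) or 3 (3.73, adjusted p = 0.0688), with limma-voom (2.91, adjusted p = 0.117) and in a fit of the 6 libraries alone (3.83, adjusted p = 0.0629).

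**Figure D2:**
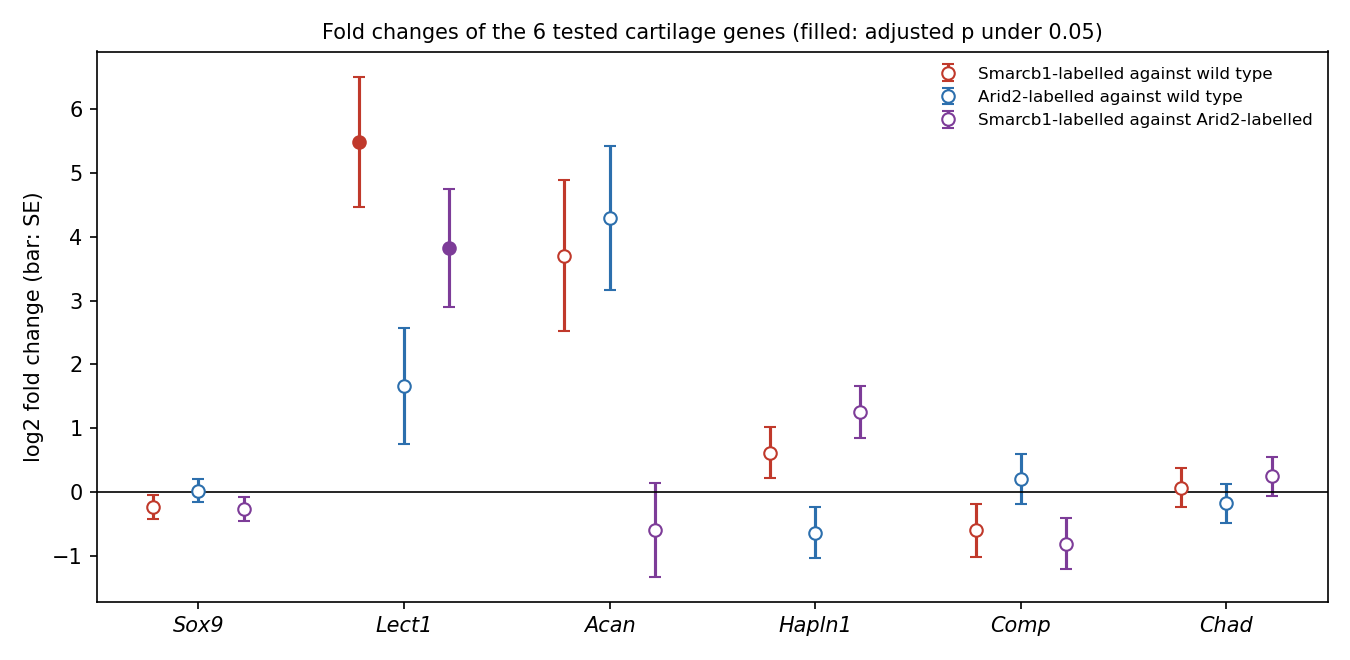
Log2 fold changes with standard errors for the 6 members that passed the filter on low counts, in Smarcb1-labelled against wild-type, Arid2-labelled against wild-type and Smarcb1-labelled against Arid2-labelled libraries; filled points have an adjusted p under 0.05. Lect1 is filled at 5.49 and 3.83, and every other point is open.

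Parathyroid genes also had their highest sums in the Smarcb1-labelled libraries. The summed level of Pth, Gcm2 and Casr was 16992, 6092 and 9562 CPM across Smarcb1-labelled replicates 1 to 3, between 10.6 and 1581 CPM in Arid2-labelled libraries and between 8.16 and 4320 CPM in wild type. Pth was near 0 in a library of each other group, and Lect1 there was 7.21 CPM (Arid2-labelled replicate 3, 8 counts of Pth) and 2.46 CPM (wild-type replicate 3, 1 count of Pth). With the mean log2(CPM + 1) of the 3 parathyroid genes as a covariate, the log2 fold change of Lect1 in Smarcb1-labelled against wild-type libraries was 5.46. Its call ended (adjusted p = 0.0907), while Acan became the member called in that comparison (5.55, adjusted p = 0.0478). Acan was admitted by the filter only through knockout-labelled libraries. Smarcb1-labelled against Arid2-labelled, the call of Lect1 ended as well (3.80, adjusted p = 0.156). Tnmd, the gene of tenomodulin and the closest relative of Lect1, was 153.7, 74.1 and 111.2 CPM across Smarcb1-labelled replicates 1 to 3, against 9.80, 100.03 and 2.67 CPM in wild type. Wild-type replicate 2, with 4172 CPM of Pth, was thus high for Tnmd and low for Lect1. Within the Smarcb1-labelled group, Lect1 and the parathyroid sum had the same order, replicates 1, 3 and then 2. Every Smarcb1-labelled library had a higher parathyroid sum than every other library, so the covariate and that group cannot be told apart. The part of parathyroid tissue in the Lect1 levels was therefore not tested.

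The patterns most like that of Lect1 over the 9 libraries were those of Serpinb12, a serine protease inhibitor gene, Rps13-ps1 and Postn, the gene of the matrix protein periostin. Likeness was measured as the root mean square difference of centred log2(CPM + 0.5), and was 1.14, 1.41 and 1.42 for the 3 genes, against a median of 2.17 over 14172 genes. Serpinb12 measured 4.22, 0.996 and 6.41 CPM across Smarcb1-labelled replicates 1 to 3, 0.0991, 0.0313 and 0.0803 CPM across Arid2-labelled replicates 1 to 3 and 0.243, 0.142 and 0.0890 CPM across wild-type replicates 1 to 3. It shared with Lect1 the low value of Smarcb1-labelled replicate 2 but not the higher levels of the Arid2-labelled group. Postn shared both, 538.7, 126.04 and 263.6 CPM across Smarcb1-labelled replicates 1 to 3, 133, 183.8 and 170.3 CPM in Arid2-labelled libraries and 75.5, 90.7 and 117 CPM in wild type. Postn was called higher in Smarcb1-labelled than in wild-type libraries (log2 fold change 1.71, SE 0.44, adjusted p = 0.0475). Rps13-ps1, named as a pseudogene of a ribosomal protein gene, is uncertain because its reads may come from a near-identical copy.

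**Figure D3:**
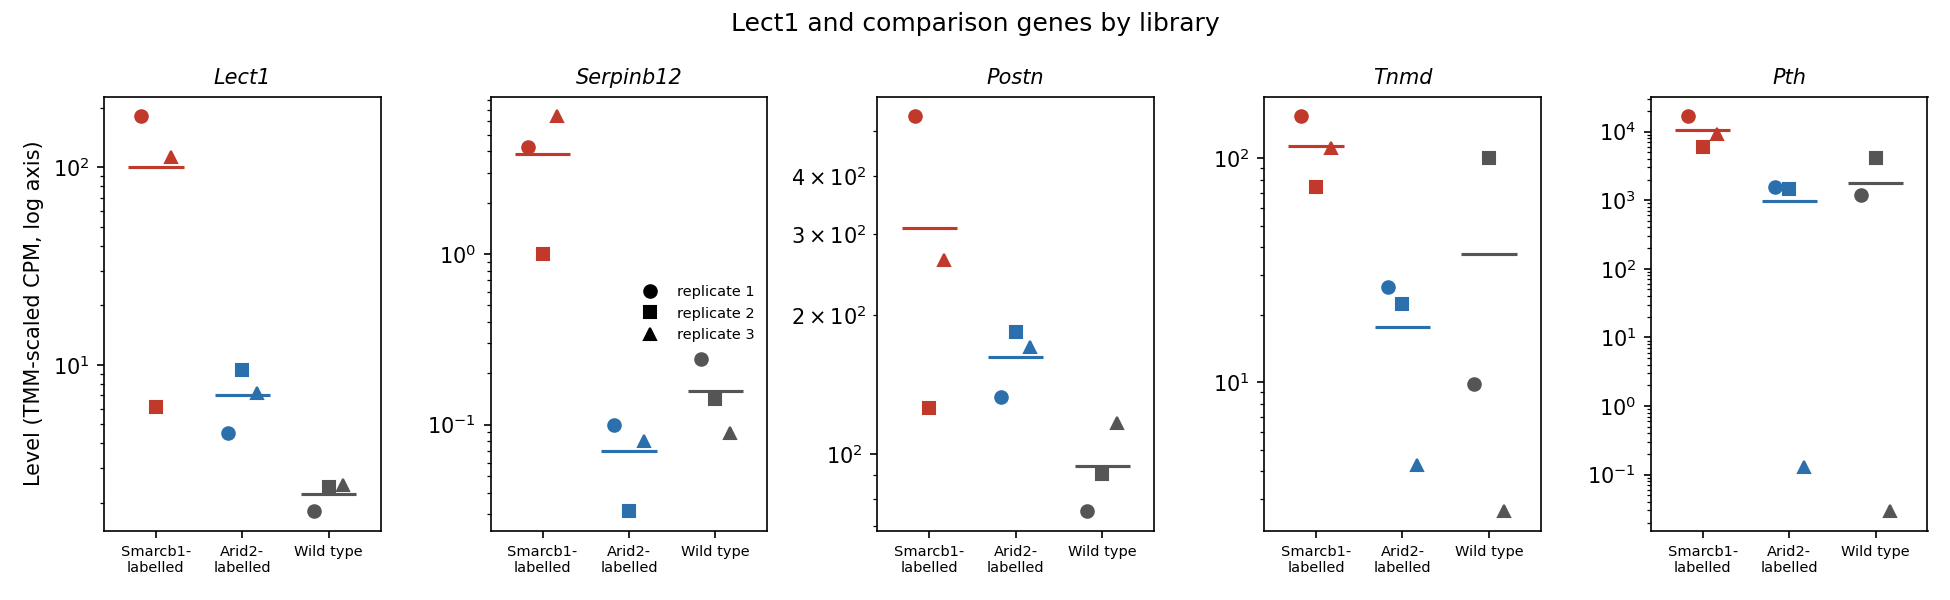
Levels of Lect1, the like-patterned Serpinb12 and Postn, its relative Tnmd and the parathyroid hormone gene Pth (TMM-scaled CPM, log axes) in Smarcb1-labelled, Arid2-labelled and wild-type libraries; symbols are libraries and lines are means of 3. Smarcb1-labelled replicate 2 is low for Lect1 (6.09 CPM) and Postn (126.04 CPM), whereas Tnmd is high in wild-type replicate 2 (100.03 CPM), where Lect1 is 2.39 CPM.

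Sox9, the transcription factor of the chondrocyte programme, had the highest level per kilobase of the members in Arid2-labelled and wild-type thyroid. It measured 69.6, 103.9 and 116.8 CPM across Smarcb1-labelled replicates 1 to 3, 116.8, 131.2 and 99.7 CPM across Arid2-labelled replicates 1 to 3 and 106.6, 116.2 and 118.8 CPM across wild-type replicates 1 to 3. The groups overlapped in all comparisons, and the lowest library, Smarcb1-labelled replicate 1, was the one with the most Lect1. The log2 fold change was -0.23 for Smarcb1-labelled (SE 0.18, adjusted p = 0.422) and 0.03 for Arid2-labelled libraries (SE 0.18, adjusted p = 0.962) against wild type, and the Arid2-labelled value changed sign under 4 alternatives.

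Aggrecan and its link protein differed in which libraries were high. Acan had 3, 19 and 13 counts across Smarcb1-labelled replicates 1 to 3, 18, 14 and 56 counts across Arid2-labelled replicates 1 to 3, and 1, 0 and 1 counts in the wild-type libraries. In levels these were 0.0763, 0.430 and 0.352 CPM in Smarcb1-labelled libraries, 0.198, 0.219 and 0.900 CPM in Arid2-labelled libraries and 0.0303 CPM or less in wild type, where 3 counts correspond to between 0.0854 and 0.0910 CPM. Every knockout-labelled library was above every wild-type library, but Smarcb1-labelled replicate 1 rests on 3 counts. Its 95% counting interval, 0.0157 to 0.223 CPM, overlapped that of wild-type replicate 1, which reached 0.169 CPM. The whole-group ratio to wild type was 14.8 for Smarcb1-labelled libraries (95% counting interval 3.80 to 127) and 20.6 for Arid2-labelled libraries (5.55 to 173), where the interval covers counting error only, as reads carry no molecular identifiers. With all libraries thinned to the smallest total, Acan kept 33 counts over the Smarcb1-labelled, 47 over the Arid2-labelled and 2 over the wild-type libraries. Smarcb1-labelled replicate 1 kept 2 counts, beside 1, 0 and 1 in wild-type replicates 1 to 3.

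Acan passed the filter on low counts only through knockout-labelled libraries, so its tests against wild type concern a gene admitted where it was high. Neither difference of Acan from wild type passed in the edgeR fit of group means. The fitted log2 fold change was 3.70 for Smarcb1-labelled libraries (SE 1.18, adjusted p = 0.0821) and 4.29 for Arid2-labelled libraries (SE 1.12, adjusted p = 0.125), values that rest on 2 wild-type counts. By DESeq2 the adjusted p was 0.0424 for Smarcb1-labelled and 0.0346 for Arid2-labelled libraries. In the edgeR fit with the parathyroid covariate, Acan passed in Smarcb1-labelled libraries (5.55, adjusted p = 0.0478) and did not in Arid2-labelled ones (4.23, adjusted p = 0.0849). As that covariate was higher in every Smarcb1-labelled library than in any other, it cannot be told apart from the Smarcb1-labelled group. Without Arid2-labelled replicate 3 the log2 fold change of the Arid2-labelled group was 3.23 (adjusted p = 0.257). Between the knockout-labelled groups the counts gave a Smarcb1-labelled to Arid2-labelled ratio of 0.717 (counting interval 0.470 to 1.07).

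The genes most like Acan in pattern were Tagln and Myh11, both contractile genes of smooth muscle, and Wscd2, with root mean square differences of 0.178, 0.201 and 0.205 against a median of 0.53 over 14172 genes. Myh11 measured 36.3, 70.6 and 66.8 CPM across Smarcb1-labelled replicates 1 to 3, 58.8, 50.8 and 85.0 CPM across Arid2-labelled replicates 1 to 3 and 30.5, 27.2 and 38.7 CPM across wild-type replicates 1 to 3. As for Acan, Arid2-labelled replicate 3 was highest, Smarcb1-labelled replicate 1 was lowest in its group and wild type was low. The 0.5 added to CPM is of the order of the Acan levels and shrinks their differences. On that scale the Arid2-labelled mean of Acan was 0.77 above wild type, against a fitted log2 fold change of 4.29. The likeness therefore does not extend to the size of the change.

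Hapln1, the link protein gene, measured 4.45, 1.63 and 3.14 CPM across Smarcb1-labelled replicates 1 to 3, 1.34, 1.11 and 1.40 CPM across Arid2-labelled replicates 1 to 3 and 1.27, 2.85 and 1.87 CPM across wild-type replicates 1 to 3. The order within the Smarcb1-labelled group, replicates 1, 3 and then 2, was the one seen for Lect1 and for the parathyroid sum. Wild-type replicate 2, with the highest parathyroid sum of wild type, 4320 CPM, also had the most Hapln1 there. Arid2-labelled replicate 3, with the lowest parathyroid sum of its group, 10.6 CPM, had the most Hapln1 of its group. The part of parathyroid tissue in the Hapln1 levels was not tested. All 3 Smarcb1-labelled libraries were above the Arid2-labelled ones, as was true for 18.3% of all genes tested, and wild type overlapped both groups. Smarcb1-labelled against Arid2-labelled, Hapln1 differed by 1.26 on the log2 scale (SE 0.40, adjusted p = 0.0604), which passed by DESeq2 (adjusted p = 0.0193), at equal depth (1.44, adjusted p = 0.0356) and without Smarcb1-labelled replicate 2 (1.56, adjusted p = 0.0177). After removal of the GC content trend it was 0.84 (adjusted p = 0.205). Against wild type it was 0.62 for Smarcb1-labelled (SE 0.40, adjusted p = 0.330) and -0.64 for Arid2-labelled libraries (SE 0.40, adjusted p = 0.503).

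Of the adaptor genes, Matn1 was all but absent. It had 0, 7 and 0 counts across Smarcb1-labelled replicates 1 to 3, 2, 1 and 5 counts across Arid2-labelled replicates 1 to 3 and 0 counts in each wild-type library. Its 15 counts over 9 libraries did not pass the filter, so it was not tested. All 7 Smarcb1-labelled counts were in replicate 2, and the other Smarcb1-labelled libraries were at 0 as in wild type, so no fold is given for the group. Smarcb1-labelled replicate 2 and Arid2-labelled replicate 3, which held 12 of the 15 counts, were also the libraries with the most Acan.

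Comp measured 0.331, 0.566 and 0.460 CPM across Smarcb1-labelled replicates 1 to 3, 0.682, 0.548 and 1.16 CPM across Arid2-labelled replicates 1 to 3 and 0.485, 0.569 and 1.01 CPM across wild-type replicates 1 to 3. All 3 groups overlapped, with the highest library again Arid2-labelled replicate 3. The log2 fold change against wild type was -0.60 for Smarcb1-labelled (SE 0.41, adjusted p = 0.365) and 0.21 for Arid2-labelled libraries (SE 0.40, adjusted p = 0.848), and without Arid2-labelled replicate 3 the second was -0.17.

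Chad measured 4.53, 9.82 and 5.98 CPM across Smarcb1-labelled replicates 1 to 3, 4.55, 5.70 and 6.87 CPM across Arid2-labelled replicates 1 to 3 and 7.67, 4.98 and 6.67 CPM across wild-type replicates 1 to 3. The groups overlapped throughout, and the highest value was that of Smarcb1-labelled replicate 2. Against wild type the log2 fold change was 0.07 for Smarcb1-labelled (SE 0.31, adjusted p = 0.896) and -0.18 for Arid2-labelled libraries (SE 0.31, adjusted p = 0.832), and without Smarcb1-labelled replicate 2 the first was -0.29. Chad lies within the span of Acsf2, a gene of the opposite strand whose exons it does not overlap in the GENCODE vM21 annotation of GRCm38. Acsf2 was transcribed in every library, with means of 46.3, 59.2 and 53.7 CPM in the Smarcb1-labelled, Arid2-labelled and wild-type groups. Since no source used here states that counting kept strand, the Chad counts are uncertain.

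Levels of different members were compared per kilobase of merged exon, with lengths from GENCODE vM21. In Smarcb1-labelled thyroid Lect1 came first, with a mean level of 54.3 CPM per kilobase against 23.4 for Sox9, although it ranged from 3.30 to 98.5 and so overlapped Sox9. In Arid2-labelled thyroid the order was Sox9 (28.03), Lect1 (3.83), Chad (3.40), Comp (0.268), Hapln1 (0.217), Acan (0.0588) and Matn1 (0.0197), with Lect1 overlapping Chad, Comp overlapping Hapln1 and Acan overlapping Matn1. In wild type the order was Sox9 (27.5), Chad (3.83), Lect1 (1.21), Hapln1 (0.338), Comp (0.232) and Acan (0.00268), and only Hapln1 and Comp overlapped among these neighbours. Matn1 had no counts there.

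**Figure D4:**
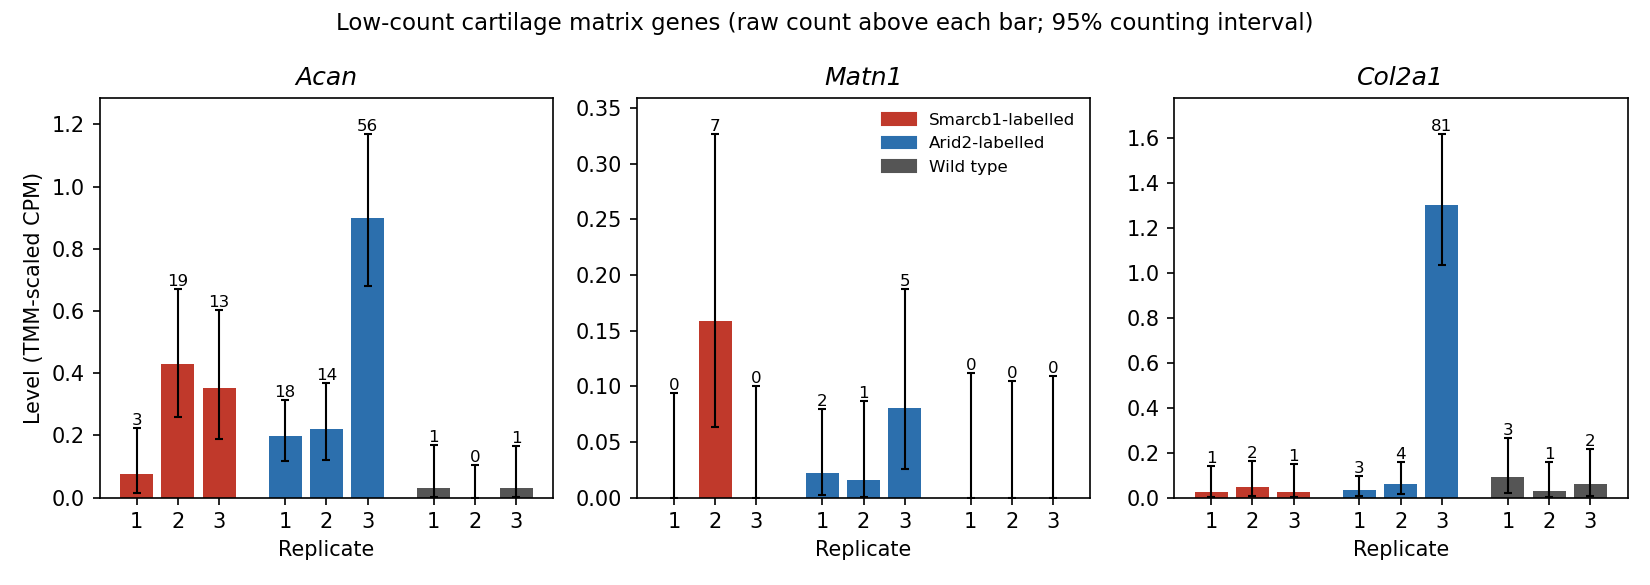
Levels (TMM-scaled CPM, linear axes from 0) of Acan, Matn1 and the type II collagen gene Col2a1 by library in Smarcb1-labelled, Arid2-labelled and wild-type thyroid, with 95% counting intervals and raw counts above the bars. Col2a1 has 81 counts in Arid2-labelled replicate 3 and 4 or fewer elsewhere, while Acan reaches 13 to 19 counts in 4 further libraries.

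Col2a1, singled out after its values were seen because type II collagen is the main collagen of hyaline cartilage, had 1, 2 and 1 counts in Smarcb1-labelled libraries, 3, 4 and 81 counts across Arid2-labelled replicates 1 to 3 and 3, 1 and 2 counts in wild type. In every library but Arid2-labelled replicate 3 it was at 0.0910 CPM or less, including the libraries with the most Lect1. Airway genes of the trachea had their highest sum in that replicate, and nearly as high a sum in Smarcb1-labelled replicate 2, which had 2 counts of Col2a1. Their summed level over 10 genes was 1.78, 97.3 and 10.7 CPM across Smarcb1-labelled replicates 1 to 3, 57.9, 37.9 and 99.4 CPM across Arid2-labelled replicates 1 to 3 and 12.2 to 18.4 CPM in wild type. The genes of this list did not share a highest library. Krt5, a basal cell keratin, was at 0 counts in Smarcb1-labelled replicate 1 and highest in Smarcb1-labelled replicate 2 at 41.3 CPM. Ltf was highest there as well, at 41.6 CPM, so that Krt5 and Ltf made up most of the sum of that library. Scgb1a1, the club cell secretoglobin, was highest in Arid2-labelled replicate 3 at 32.7 CPM, against 3.15 CPM in Smarcb1-labelled replicate 2. Scgb3a1, a further secretoglobin, was 23.0 and 0.769 CPM in the same order of libraries. Scgb3a1 was called higher in Arid2-labelled than in wild-type libraries (log2 fold change 5.47, SE 0.45, adjusted p = 0.00261). It was called lower in Smarcb1-labelled than in Arid2-labelled libraries (-5.16, SE 0.44, adjusted p = 0.00115). Muc5b, a gel-forming mucin, and Bpifb1, a secreted airway protein gene, were called likewise. These 2 genes passed the filter on low counts only with the Arid2-labelled libraries, where they were high, so their calls are not read as results. Over all genes tested, 0.234% were called higher in the first comparison and 9.32% lower in the second. The libraries with the 2 highest airway sums were those with the 2 highest Acan and Matn1 levels. As the sum of Smarcb1-labelled replicate 2 was mostly Krt5 and Ltf, it is not read as a level of tracheal tissue. The part of tracheal tissue in the Acan and Matn1 counts was not tested.

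A further 30 genes of cartilage matrix, sulfation and chondrocyte regulation were read beside the members, and 24 passed the filter. Against wild type, 2 fell and 0 rose in Smarcb1-labelled libraries, 1 fell and 0 rose in Arid2-labelled libraries, and Smarcb1-labelled against Arid2-labelled 2 rose and 3 fell. Over all genes tested, 7.9%, 0.556% and 16.3% were called in these comparisons, and nothing particular to the list is read from its counts. Their median log2 fold changes were 0.04, 0.24 and 0.06, beside 0.05, 0.02 and 0.003 over all genes tested, and those of the 6 members were 0.35, 0.12 and -0.01. Matn4, a matrilin gene expressed beyond cartilage, fell in both groups, to 13.1, 13.9 and 8.50 CPM in Smarcb1-labelled libraries (log2 fold change -1.26, SE 0.24, adjusted p = 0.0192) and 11.05, 10.6 and 10.6 CPM in Arid2-labelled libraries (-1.39, SE 0.24, adjusted p = 0.0457), against 36.2, 28.4 and 20.1 CPM in wild type. The Smarcb1-labelled call of Matn4 ended without Smarcb1-labelled replicate 3 or wild-type replicate 1 or 2, and the Arid2-labelled call without any 1 Arid2-labelled library, Smarcb1-labelled replicate 1 or wild-type replicate 1 or 2.

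Col9a3, a chain of the type IX collagen that decorates cartilage fibrils, was 17.9, 23.3 and 20.6 CPM across Smarcb1-labelled replicates 1 to 3, 68.5, 63.5 and 45.3 CPM in Arid2-labelled libraries and 35.6, 35.7 and 48.3 CPM in wild type. It was lower in Smarcb1-labelled libraries than in wild type (-0.95, SE 0.19, adjusted p = 0.0216) and than in Arid2-labelled libraries (-1.52, SE 0.19, adjusted p = 0.00448). The first of these calls ended with the GC trend removed and without Smarcb1-labelled replicate 1 or 3 or wild-type replicate 1 or 3. Col11a2, a fibril collagen chain, was lower in Smarcb1-labelled than in Arid2-labelled libraries as well (-1.86, SE 0.28, adjusted p = 0.00739), as was Mia1, a secreted protein gene of chondrocytes (-1.37, SE 0.29, adjusted p = 0.0196). Chst11, a chondroitin sulfotransferase (0.77, SE 0.11, adjusted p = 0.00644), and Epyc, a small proteoglycan (1.12, SE 0.29, adjusted p = 0.0346), were higher. The call of Mia1 ended without Arid2-labelled replicate 3 or Smarcb1-labelled replicate 1 or 3, and that of Epyc also without Arid2-labelled replicate 1 or 2 or wild-type replicate 1. The most abundant genes of this list were Papss2, which makes the sulfate donor, with a mean of 446 CPM over the 9 libraries, and Chst11 with 126.7 CPM; Chst3 and Col9a1, with 23.9 and 17.8 CPM, did not pass in any comparison, nor did Papss2.

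Markers of further tissues that border or share the gland were summed in the same way, and their part in the members' levels was not tested. Tendon genes summed to between 86.7 and 163.2 CPM in Smarcb1-labelled, between 30.02 and 42.2 CPM in Arid2-labelled and between 24.1 and 123.9 CPM in wild-type libraries. Most of it was Tnmd in the libraries with the highest sums, and Fmod is in both this list and the cartilage list. Tnmd was 26.6, 22.2 and 4.29 CPM across Arid2-labelled replicates 1 to 3 and 2.67 CPM in wild-type replicate 3. It was thus lowest in the libraries with almost no Pth, so the sum is not read as a level of tendon tissue. Scx, the tendon transcription factor, fell in Smarcb1-labelled libraries (-1.63, SE 0.27, adjusted p = 0.0122). Bone genes summed to 7.82 CPM or less in all 9 libraries, nearly all from Alpl, and Ibsp, a bone matrix gene, had 1 count in 1 library, Smarcb1-labelled replicate 2. Skeletal muscle genes ranged from 97.3 to 1039 CPM in Smarcb1-labelled, from 423.8 to 1790 CPM in Arid2-labelled and from 22.3 to 1073 CPM in wild-type libraries, and fibroblast genes from 1964 to 2942 CPM, from 2068 to 2502 CPM and from 2514 to 2802 CPM in the same order of groups. Fat genes ranged from 212.2 to 549.4, from 615 to 1199 and from 316.6 to 1397 CPM, again in that order. Of the C cell genes, Calca, the calcitonin gene, averaged 2388, 2026 and 3043 CPM and Chga, which parathyroid cells also express, 6007, 920 and 1884 CPM in Smarcb1-labelled, Arid2-labelled and wild-type libraries. Chga was at 29.5 and 32.9 CPM in Arid2-labelled replicate 3 and wild-type replicate 3, the libraries with almost no Pth, so the sum over the C cell list is not given.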

How the data were processed

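RNA from whole mouse thyroid, isolated with TRIzol and made into TruSeq RNA libraries per the labels' protocols, was read as the raw gene counts of 9 libraries deposited by the authors, not normalized. STAR 2.4, HTSeq 0.6.1 and DESeq2, and the build mm9, are listed without roles in the submitters' processing notes, and the strand setting is not given in the sources used here. Groups came from the genotype labels, and replicate numbers were given in accession order. The members, gene lists, tests and naming rule were chosen with earlier results of these data known.

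Counts were tested with edgeR 4.0.16 in R 4.3.3 (quasi-likelihood F test) after filtering with filterByExpr and TMM scaling, in 1 fit of 3 group means over all 9 libraries, with 6 residual degrees of freedom. A gene was called where its Benjamini-Hochberg adjusted p over 17079 genes was under 0.05. Standard errors came from the log2 fold change and its F statistic, and counting intervals are exact Poisson 95% intervals. Member levels also had an exact permutation test of log2(CPM + 0.5). The edgeR step was tested on simulated data.

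Alternatives were DESeq2 size factors, upper-quartile scaling, library totals, no filter, a filter of CPM 1 or more in 3 or more libraries, DESeq2 1.42.0, limma-voom (limma 3.58.1), an adjusted p under 0.01, a fit of the 6 libraries compared, a robust spread, thinning to equal depth, a parathyroid covariate, a pseudocount of 0.1 and omission of each library. Removal of each library's GC trend (spline with 5 degrees of freedom, GC from GENCODE vM21 for 97.1% of the genes tested) and omission of both thymus-marked libraries were added after the data were seen.

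The naming rule took all 7 members; the called genes and the 6 most abundant of the other cartilage list; the called genes and the 2 most abundant of every other list; Arid2 and Smarcb1; and the 3 genes closest in pattern to each member, of which those of Lect1 and Acan are described. Of these, some genes of the other tissue lists are given only in their list's sum. All genes of the 12 lists were found in the table, Snorc and Dnah5 under older symbols. No coordinates of the mm9 counts are given, and promoter coordinates are those of GRCm38.p6.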

Additional observations from a re-analysis of the deposited data

How the results depend on the processing

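Of 406 member fold changes recomputed under alternatives, 369 kept their direction and their side of the threshold, 16 lost a call, 8 gained 1 and 13 changed sign. Members called in Arid2-labelled against wild-type libraries numbered 0, with 1 by DESeq2, 1 without both thymus-marked libraries and 0 (0 to 0) on leaving out any single library. In Smarcb1-labelled against wild-type libraries they numbered 1, with 2 by DESeq2 and 0 to 1 on leaving out single libraries. They numbered 0 by limma-voom and 0 at an adjusted p under 0.01. With the parathyroid covariate the count was also 1, but the gene was Acan, admitted only through knockout-labelled libraries, in place of Lect1. Smarcb1-labelled against Arid2-labelled they numbered 1, with 2 by DESeq2, at equal depth and without both thymus-marked libraries, 0 by limma-voom, in the 6 libraries alone, at 0.01 and with the parathyroid covariate, and 0 to 2 on leaving out single libraries. Other cartilage genes called against wild type in Arid2-labelled libraries numbered 1, with 3 by DESeq2, 2 in the 6 libraries alone, 0 with library totals, at 0.01, with the covariate and without both thymus-marked libraries, and 0 to 2 on leaving out single libraries. In Smarcb1-labelled against wild-type libraries they numbered 2, with 5 by DESeq2, 1 in the 6 libraries alone, 0 at 0.01 and with the covariate, 1 after GC removal, 4 without both thymus-marked libraries and 0 to 4 on leaving out single libraries. Smarcb1-labelled against Arid2-labelled they numbered 5, with 3 at 0.01, 1 with the covariate and 3 to 6 on leaving out single libraries.

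Sign changes were all in fold changes that did not pass. With the covariate, Comp was 0.040 in Smarcb1-labelled against wild-type libraries and Acan 1.32 in Smarcb1-labelled against Arid2-labelled libraries. Sox9 in Arid2-labelled against wild-type libraries was -0.048 after GC removal and -0.014 without both thymus-marked libraries, where Chad was -0.34 in Smarcb1-labelled against wild-type and -0.27 in Smarcb1-labelled against Arid2-labelled libraries. On leaving out single libraries, Arid2-labelled against wild-type values ran -0.073 to 0.11 for Sox9 and -0.17 to 0.59 for Comp, Smarcb1-labelled against wild-type values ran -0.29 to 0.29 for Chad, and Smarcb1-labelled against Arid2-labelled values ran -1.02 to 0.45 for Acan and -0.12 to 0.47 for Chad. The cause was not tested. No paired analysis was possible because the labels give the libraries no shared replicate numbers. Depth limits Acan and Matn1, whose wild-type counts were at or under 1 in each library.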
